A study of Mus musculus with 4 samples.

Results

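The transcripts of Nfe2l2 and 9 genes known as its antioxidant targets were examined in mouse epidermis with and without the calcium sensors STIM1 and STIM2. The 10 genes were taken by symbol from the 56493 genes of the count table, and each symbol matched 1 row. The cKO group had 2 libraries from mice in which K14-Cre, a recombinase under the keratin 14 promoter, removes Stim1 and Stim2 from epithelium, and the control group had 2 libraries from mice homozygous for the floxed alleles (Stim1/2fl/fl, labelled Flox/Flox). Both groups thus carried floxed alleles. Cells in whose lineage the keratin 14 promoter was never active keep both genes in the cKO mice. Age, sex, strain and the number of mice behind a library are not given in the sources used here, so p-values measure the spread between these libraries, which may be technical. RNA came from epidermis lifted off shaved back skin and was read from the 3' ends of transcripts.

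NRF2, the protein product of Nfe2l2, is a transcription factor that KEAP1 holds in the cytoplasm and hands to a CUL3 ubiquitin ligase for destruction. Oxidants and electrophiles modify KEAP1, and NRF2 then enters the nucleus, pairs with small MAF proteins and binds antioxidant response elements near its targets. In epidermis, which meets ultraviolet light and chemicals, the targets make glutathione, reduce thioredoxin and peroxiredoxins and detoxify quinones and heme.

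None of the 7 genes with more than 3 counts in a library passed the test for a difference between genotypes. Only 3 of these passed the count filter. The others of the 10, Nqo1, Gsta4 and Gstm1, had at most 2 counts in all and could not have passed. Prdx1 and Txnrd1 held 77.8% of the 594 counts of the 10 genes over all libraries, and Nqo1, a classic NRF2 target, had no count in any library. The Nfe2l2 transcript was higher in both cKO libraries than in both control libraries, but at 4 to 15 counts a library the difference did not pass the test. Of all genes tested, 18.9% had both cKO values above both control values. Within each genotype Prdx1 and Txnrd1 differed between the replicates in opposite directions, 1.54- to 2.12-fold for Prdx1 and 2.99- to 9.11-fold for Txnrd1. This was noticed only on seeing the values, and how many other genes split the libraries in the same ways was not counted. The normalised sum of all 10 genes lay between 688 and 736 CPM in every library, a range narrower than its counting error.

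The libraries were shallow, with total counts of 118858 to 322426, a 2.71-fold range. Counts are given raw and as CPM, scaled to the TMM-adjusted size of each library. A count of 0 allows up to 3 counts, which on the CPM scale were 12.1 and 33.7 in the cKO libraries and 16.01 and 9.58 in the control libraries. Intervals on counts and these limits cover counting error only. Stim1 was counted 23 and 6 times in cKO epidermis and 24 and 62 times in control epidermis, and Stim2 had 0 and 1 against 3 and 18. Stim1 did not pass the test (edgeR, adjusted p 0.671) and Stim2 fell under the count filter, so the check of the labels rests on few counts. All 13 marker lists had at least 1 gene with a count, and 7 had a count for every listed gene, among them basal keratinocytes (7 genes), suprabasal keratinocytes (9), skeletal muscle (11) and Langerhans cells and macrophages (10). Skeletal muscle markers summed to 44.5 and 135 CPM in cKO and 1478 and 1022 CPM in control, and Langerhans cell and macrophage markers to 946 and 2888 CPM against 3223 and 1865 CPM. Of the muscle markers 6 were tested and 4 were called lower in cKO by edgeR, among 8 genes called lower in all. In a bulk sample fewer cells of a type and less RNA per cell cannot be told apart. How much muscle came with each sample of epidermis was not tested.

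**Figure D1:**
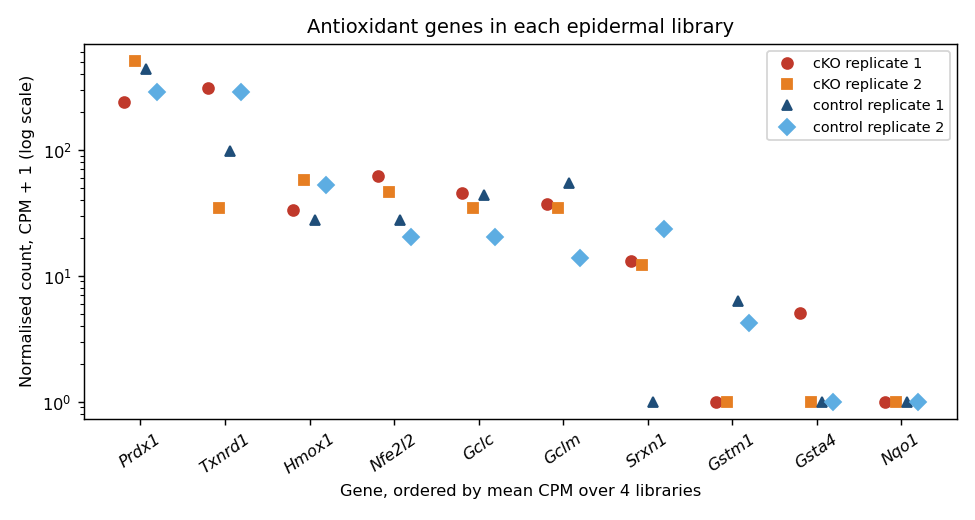
Normalised count (CPM + 1, log scale) of each of the 10 genes in the 4 libraries, 1 symbol per library, with genes ordered by mean CPM. Prdx1 and Txnrd1 lie above the rest in most libraries, Txnrd1 of cKO replicate 2 drops to 33.7 CPM, and Nqo1 sits at a count of 0 throughout.

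Promoter sequences are shown because NRF2 is known to bind its targets there. The core of the antioxidant response element, TGACNNNGC, was searched on both strands in RefSeq promoter windows (GRCm38.p6, 250 bases before to 50 bases after each start site). Windows were found for 7 of the 10 genes, and the table used here has none for Gclc, Hmox1 and Gsta4. The motif was present in 5 of their 10 windows, each of another gene, against 12.4% of all 32851 windows of that length. Txnrd1 has several start sites and 1 of its windows held the motif, and the windows of Nqo1 and Gstm1 did not hold these letters. The 29 bases around each match are printed 5′ to 3′ on the gene's strand, with the match in capitals, so that the spelling can be compared between the abundant genes (Prdx1, Txnrd1) and the scarce ones (Nfe2l2, Gclm, Srxn1).
Nfe2l2 (chr2:75704885-75704913, minus strand): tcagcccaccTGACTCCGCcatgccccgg
Gclm (chr3:122245413-122245441, plus strand): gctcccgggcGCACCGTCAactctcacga
Txnrd1 (chr10:82859104-82859132, plus strand): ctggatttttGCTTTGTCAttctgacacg
Prdx1 (chr4:116685456-116685484, plus strand): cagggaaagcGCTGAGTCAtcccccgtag
Srxn1 (chr2:152105542-152105570, plus strand): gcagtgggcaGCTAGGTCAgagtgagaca
The match begins 240 bases before the start site in Nfe2l2, 134 in Gclm, 92 in Txnrd1 and 133 in Prdx1, and at base 29 of the transcript in Srxn1. In Nfe2l2 it reads forward, and in the other genes it lies on the opposite strand. The Prdx1 match alone overlaps the AP-1 motif (TGACTCA or TGAGTCA). A match is a description of the letters, and binding was not measured in these samples.

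Nfe2l2 (ENSMUSG00000015839, chromosome 2, 75505857 to 75534985, minus strand, in the table's coordinates, for which the submitters' processing notes name GRCm39) encodes the regulator itself. It had 15 and 4 counts in the first and second cKO library and 5 and 6 counts in the first and second control library, the order used throughout, or 60.7 and 45.0 CPM against 26.7 and 19.2 CPM. Both cKO values lay above both control values. The means were 52.8 ± 11.1 CPM (SD, n = 2) for cKO epidermis and 22.9 ± 5.32 CPM (SD, n = 2) for control epidermis. Nfe2l2 fell under the count filter, and in an edgeR fit to which it was added its log2 fold change was 1.24 (standard error 0.88, unadjusted p 0.181, adjusted p 0.813, 95% interval -0.65 to 3.12). Pooled over libraries, Nfe2l2 took 4.74 per 100000 counts in cKO (95% Wilson interval 3.03 to 7.40) and 2.10 in control (1.18 to 3.77). The pooled ratio of 2.25 had an exact counting interval of 1.02 to 5.24, which leaves out the spread between libraries that the edgeR test includes. Nfe2l2 was 1 of the 7 genes with more than 3 counts in a library and the only one of these whose groups did not overlap. Among all genes tested 38.5% showed such a separation in either direction, and 18.9% showed it with cKO above control.

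Gclc and Gclm encode the catalytic and the modifier subunit of glutamate-cysteine ligase, which makes the first bond of glutathione. Gclc (ENSMUSG00000032350, chromosome 9, 77661817 to 77701767, plus strand) was counted 11 and 3 times in cKO epidermis and 8 and 6 times in control epidermis. Its normalised values were 44.5 and 33.7 CPM in cKO and 42.7 and 19.2 CPM in control, so the groups overlapped. The log2 fold change of Gclc was 0.41 (standard error 0.92, adjusted p 0.988 in the edgeR fit with the gene added).

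Gclm (ENSMUSG00000028124, chromosome 3, 122039206 to 122064381, plus strand) was counted 9 and 3 times in cKO epidermis and 10 and 4 times in control epidermis. The 2 cKO values, 36.4 and 33.7 CPM, lay between the control values of 53.4 and 12.8 CPM. Control replicate 1 was 4.18 times control replicate 2 (exact counting interval 1.21 to 18.3), whereas the log2 fold change between genotypes was 0.16 (standard error 0.99, edgeR with the gene added, adjusted p 0.997). Gclm exons in the table share 244 bases with Gm6061, a processed pseudogene on the same strand that was counted 32 and 21 times in cKO epidermis and 28 and 34 times in control epidermis. Part of a Gclm reference transcript is 97.9% identical over 287 bases to Ppia, an abundant cyclophilin gene. How reads shared by such copies were divided is not stated, so the Gclm counts are uncertain. None of the other members shared exon bases with another gene. Prdx1 has near-identical copies in Gm21399 and Gm7204 (98.3% and 97.5% over 597 bases), both with 0 counts in all libraries. The handling of reads shared with these copies is not stated either, so the Prdx1 counts carry this uncertainty too.

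Txnrd1, Srxn1 and Prdx1 act in turn on thiols. Prdx1 removes hydrogen peroxide, Srxn1 repairs peroxiredoxins that have been over-oxidised, and Txnrd1 recharges thioredoxin, the reductant of peroxiredoxins, with electrons from NADPH. Prdx1 (ENSMUSG00000028691, chromosome 4, 116542741 to 116558019, plus strand) was counted 59 and 45 times in cKO epidermis and 82 and 89 times in control epidermis. On the normalised scale these were 239 and 506 CPM in cKO and 438 and 284 CPM in control. The cKO libraries gave the lowest and the highest value, on either side of both control libraries. The means were 372 ± 189 CPM (SD, n = 2) for cKO epidermis and 361 ± 108 CPM (SD, n = 2) for control epidermis, with a log2 fold change of 0.01 (standard error 0.48, edgeR adjusted p 0.998). Its 95% interval, -1.03 to 1.05, was the narrowest of the 7 genes with a fold. A change of Prdx1 to under 0.488 or over 2.08 times the control level thus lay outside the interval, while smaller changes lay inside it. Its sign is not defined by these data, since it turned negative under 9 of the 11 other settings that kept all libraries.

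Txnrd1 (ENSMUSG00000020250, chromosome 10, 82669785 to 82733546, plus strand) was counted 76 and 3 times in cKO epidermis and 18 and 90 times in control epidermis. The normalised values were 307 and 33.7 CPM in cKO and 96.05 and 287 CPM in control. Thus cKO replicate 1 and control replicate 2 were high, control replicate 1 was lower and cKO replicate 2 was lowest. The within-group ratio was 9.11 in cKO (exact counting interval 3.002 to 45.2) and 2.99 in control (1.79 to 5.28), both beyond counting error. The means were 171 ± 194 CPM (SD, n = 2) for cKO epidermis and 192 ± 135 CPM (SD, n = 2) for control epidermis, and the log2 fold change was -0.05 (standard error 0.70, edgeR, adjusted p 0.997, 95% interval -1.55 to 1.45). This value was set by single libraries. It became -2.57 without cKO replicate 1 (adjusted p 0.101), 0.65 with cKO replicate 2 left out, -0.62 without control replicate 1 and, on leaving out control replicate 2, 0.98.

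Srxn1 (ENSMUSG00000032802, chromosome 2, 151947436 to 151953296, plus strand) was counted 3 and 1 times in cKO epidermis and 0 and 7 times in control epidermis. Pooled, Srxn1 stood at 4 counts in cKO and 7 in control, a ratio of 0.745 with an exact counting interval of 0.160 to 2.93. Control replicate 2 alone held all the control counts, and a difference between genotypes was not detectable.

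**Figure D2:**
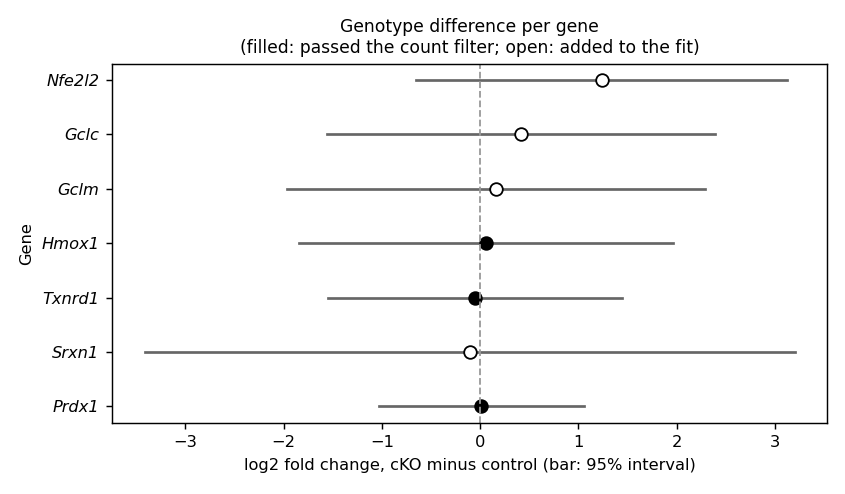
Log2 fold change (cKO minus control) of the 7 genes with more than 3 counts in a library, with 95% intervals from the quasi-likelihood fit. Filled points passed the count filter and open points were added to the fit. All 7 intervals include 0, from the narrowest for Prdx1 (-1.03 to 1.05) to the widest for Srxn1 (-3.42 to 3.20).

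Libraries low in Txnrd1 were high in Prdx1, which was noticed only on seeing the values. Within cKO, Prdx1 was 2.12 times higher in replicate 2 than in replicate 1 (exact counting interval 1.41 to 3.18), and within control it was 1.54 times higher in replicate 1 than in replicate 2 (1.13 to 2.10). Txnrd1 went the other way in both groups. The number of Txnrd1 counts per Prdx1 count was 1.29 in cKO replicate 1 and 1.01 in control replicate 2, the deepest libraries, and 0.220 in control replicate 1 and 0.0667 in cKO replicate 2, the shallowest ones. The share of counts in 7 pseudogenes that copy mitochondrial genes was 13.3% and 7.73% in the first pair and 13.1% and 22.6% in the second. Red blood cell markers summed to 1031 and 220 CPM in the first pair and 390 and 78.7 CPM in the second. The part of depth, of the mitochondrial-copy share or of red blood cells in this ratio was not tested.

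Prdx1, Txnrd1 and Srxn1 together stood at 558 and 551 CPM in cKO and 534 and 594 CPM in control. All 10 genes together were counted 182 and 64 times in cKO epidermis and 129 and 219 times in control epidermis, which were 736 and 719 CPM against 688 and 699 CPM. The means were 727 ± 11.8 CPM (SD, n = 2) for cKO epidermis and 694 ± 7.71 CPM (SD, n = 2) for control epidermis, a log2 difference of 0.07. These SDs are smaller than the counting error of sums of 64 to 219 counts and so understate the uncertainty. Of the raw library totals the 10 genes took 0.0645% (95% Wilson interval 0.0558% to 0.0746%) and 0.0539% (0.0422% to 0.0688%) in cKO and 0.0644% (0.0542% to 0.0765%) and 0.0679% (0.0595% to 0.0775%) in control. Pooled by group, the share was 0.0613% (0.0541% to 0.0695%) in cKO and 0.0666% (0.0599% to 0.0739%) in control. The order of the groups therefore depends on the scaling, with the log2 difference at -0.16 when library totals alone were used. That scaling moved the median log2 fold change of all genes from 0.01 to -0.21. The intervals of all 4 libraries overlapped.

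**Figure D3:**
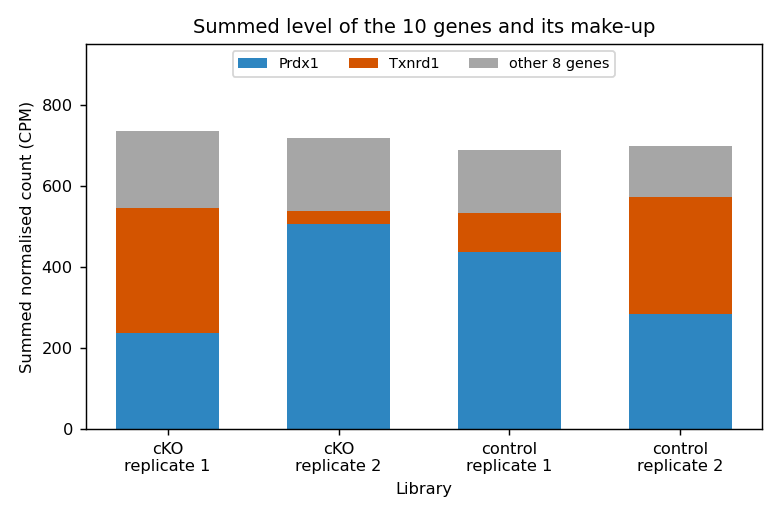
Summed normalised count (CPM) of the 10 genes in each library, stacked as Prdx1, Txnrd1 and the other 8 genes. The bars end between 688 and 736 CPM, while the Txnrd1 part runs from 33.7 to 307 CPM and the Prdx1 part from 239 to 506 CPM. The span of the bar ends is narrower than counting error.

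Hmox1 and Nqo1 encode the enzymes of the group that act on heme and on quinones. Hmox1 (ENSMUSG00000005413, chromosome 8, 75820249 to 75827217, plus strand), the inducible heme oxygenase that frees iron and biliverdin from heme, was counted 8 and 5 times in cKO epidermis and 5 and 16 times in control epidermis. These were 32.4 and 56.2 CPM in cKO and 26.7 and 51.1 CPM in control. The groups overlapped, and the log2 fold change was 0.06 (standard error 0.88, edgeR, adjusted p 0.997). The sign of this value changed with library totals as the only scaling, with totals without the mitochondrial-copy pseudogenes, without a count filter and with limma-voom. Macrophages also express Hmox1. The 10 markers of Langerhans cells and macrophages, each with a count in some library, had the sums given above. Their levels did not move together. The 3 tested ones, Cd74, H2-Aa and H2-Ab1, had log2 fold changes of -0.81, -0.38 and -0.33. These did not pass (edgeR, adjusted p 0.7175, 0.962 and 0.976). Lyz2, Cd68 and C1qa were highest in cKO replicate 2 (213.5, 67.4 and 56.2 CPM). Cd207 was lower in both cKO libraries (4.04 and 0 against 42.7 and 31.9 CPM). Adgre1 was counted only in control replicate 2 (7 counts). C1qb stood at 16.2 and 22.5 against 16.01 and 12.8 CPM. Its 4 and 2 counts against 3 and 4 are too few to give a direction. These marker genes were chosen after their values were seen. The part of such cells in the Hmox1 counts was not tested.

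Nqo1 (ENSMUSG00000003849, chromosome 8, 108114857 to 108129838, minus strand), which reduces quinones by 2 electrons at a time, had 0 of the 923767 counts of all libraries. This allows a level of up to 0.325 per 100000 counts over the series. The limit in single libraries is the 9.58 to 33.7 CPM given above.

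Gsta4 and Gstm1 encode glutathione transferases, which attach glutathione to lipid aldehydes and other electrophiles. Gsta4 (ENSMUSG00000032348, chromosome 9, 78090056 to 78116631, plus strand) had 1 count in cKO replicate 1 and 0 in the other libraries. Gstm1 (ENSMUSG00000058135, chromosome 3, 107919571 to 107925289, minus strand) had 1 count in each control library and 0 in both cKO libraries. With no library above 3 counts, no fold is given for either gene. Gstm2-ps1 and Gm8834, near-identical to Gstm1 over part of its transcript (97.9% over 657 bases for Gstm2-ps1), had 0 counts in all libraries. The handling of reads shared with these copies is not stated, so the low Gstm1 counts carry this uncertainty as well.

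A 3' library samples the end of each transcript whatever its length, so the counts were not divided by length and levels of different genes are compared as 3' tags. By mean CPM over the 4 libraries the order was Prdx1 (367), Txnrd1 (181), Hmox1 (41.6), Nfe2l2 (37.9), Gclc (35.01), Gclm (34.1), Srxn1 (11.4), Gstm1 (2.13), Gsta4 (1.01) and Nqo1 (0). The library values of Hmox1, Nfe2l2, Gclc and Gclm overlapped, so their order is not defined. Those of Prdx1 and Txnrd1 overlapped as well.

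Of the 10 genes, 3 passed the count filter (Prdx1, Txnrd1 and Hmox1) and 7 did not. In edgeR's quasi-likelihood test 0 members passed an adjusted p under 0.05, and 0 had an unadjusted p under 0.05. DESeq2 and limma-voom also called 0. Over the 4243 genes tested, 0.66% were called higher and 0.189% were called lower in cKO, and 4.22% and 4.17% had an unadjusted p under 0.05 in those directions. A count of 0 among 3 tested genes is not apart from that background.

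The libraries in which a member was high were also compared with those of other genes. Over the 4 libraries, with log2 (CPM + 1) centred on each gene's mean, the genes nearest to Hmox1 among 3734 genes were the stress keratin Krt16 (root mean square distance 0.04), Tpt1-ps6 (0.06) and Usp50 (0.07). Krt16 was counted 109 and 68 times in cKO epidermis and 72 and 212 times in control epidermis. Chosen after the values were seen, the nearest genes to Txnrd1 were Smim30 (0.06), Riok1 (0.12) and Med4 (0.17), each with 1 count in cKO replicate 2. Those nearest to Prdx1 were Mal2, Rbx1 and Smdt1, all at 0.03 to 0.04. Likeness over so few libraries is a description.

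The wider NRF2 and thiol system was described with 7 lists of 95 further genes, of which 85 had a count and 36 were tested. In these lists 1 gene, Glrx, rose in cKO and 0 fell, where 0.66% and 0.189% of all genes tested did so. Of the 36, 22 had a log2 fold change above 0 and 14 below 0, with a median of 0.14 against 0.01 over all genes tested.

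Glrx encodes glutaredoxin, which uses glutathione to release proteins from mixed disulfides. It was counted 77 and 14 times in cKO epidermis and 5 and 7 times in control epidermis, or 311 and 157 CPM against 26.7 and 22.4 CPM. Both cKO libraries were far above both control libraries. The means were 234 ± 109 CPM (SD, n = 2) for cKO epidermis and 24.5 ± 3.06 CPM (SD, n = 2) for control epidermis, and the log2 fold change was 3.29 (standard error 0.59, edgeR, adjusted p 0.0169). The adjusted p ranged from 1.41e-06 to 0.140 over the alternatives, and the call was lost without cKO replicate 1 (log2 fold change 2.63, adjusted p 0.105), with limma-voom (adjusted p 0.140) and with the replicate number as a block (adjusted p 0.0824). Suprabasal keratinocyte markers summed to 29740 and 18420 CPM in cKO and 9792 and 22110 CPM in control. Flg, which encodes filaggrin, made up 8968 and 5383 CPM of these sums in cKO and 107 and 313 CPM in control (log2 fold change 5.07, edgeR, adjusted p 0.000593). Without Flg the sums were 20780 and 13040 CPM in cKO and 9686 and 21800 CPM in control, and the groups overlapped. Of the 9 markers, 6 had a log2 fold change above 0 and 3 below 0. Krt1 stood at 1.69, Ivl at -1.20 and Dsg1a at -1.51, and none of them passed (edgeR, adjusted p 0.239, 0.359 and 0.184). Flg, Krt1, Ivl and Dsg1a were chosen after their values were seen. The part of suprabasal cells in the Glrx difference was not tested. The mitochondrial relative Glrx2 was counted 17 and 8 times in cKO epidermis and 44 and 37 times in control epidermis. Its cKO values, 68.7 and 89.9 CPM, lay below its control values of 235 and 118 CPM. The log2 fold change of -1.17 did not pass (unadjusted p 0.0528 and adjusted p 0.597 in edgeR). Glrx2 falls outside the rule for named genes and was chosen after its values were seen.

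Of the other glutathione genes, 10 of 35 were tested and only Glrx passed, with a median of 0.38. Those with the highest mean levels were Gpx4, which reduces lipid peroxides, and Gpx1, which reduces hydrogen peroxide. Gpx4 was counted 67 and 61 times in cKO epidermis and 154 and 132 times in control epidermis (log2 fold change -0.41, standard error 0.52), and its groups overlapped. Gpx1 was counted 114 and 48 times in cKO epidermis and 64 and 69 times in control epidermis (0.83, standard error 0.44). Both its cKO values, 461 and 539 CPM, lay above the control values of 341 and 220 CPM, as for 18.9% of all genes tested. Neither passed (edgeR, adjusted p 0.949 and 0.671). Slc7a11, the cystine transporter and a well-known NRF2 target, had 0 counts in all libraries, as did 7 other genes of this list. It also falls outside the rule for named genes and was chosen after its values were seen.

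**Figure D4:**
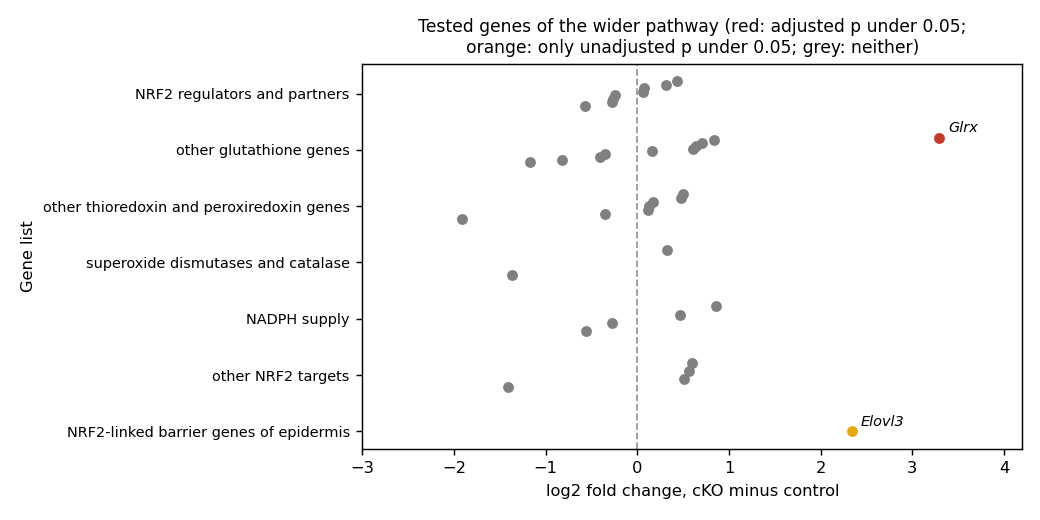
Log2 fold change (cKO minus control) of the 36 tested genes of the 7 wider lists, 1 point per gene. Glrx at 3.29 was the only gene with an adjusted p under 0.05, Elovl3 at 2.34 had only an unadjusted p under 0.05, and the other genes lie between -1.91 and 0.86.

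Among the regulators and partners of NRF2, 8 of 13 genes were tested and 0 passed, with a median log2 fold change of -0.09. Keap1, the sensor, was counted 17 and 9 times in cKO epidermis and 19 and 30 times in control epidermis, a log2 fold change of -0.26 (standard error 0.57). Keap1 was outside the rule for named genes and is given for its role. The most abundant of the list were Nfe2l1, which encodes a factor related to NRF2, and Rbx1, the RING subunit of the CUL3 ligase. Nfe2l1 was counted 222 and 129 times in cKO epidermis and 264 and 442 times in control epidermis (log2 fold change -0.27). Rbx1 had 84 and 67 against 115 and 127 (0.07), and both overlapped between the groups.

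In the other thioredoxin and peroxiredoxin genes, 7 of 17 were tested and 0 passed, with a median of 0.13. Prdx5 and Prdx2, further peroxiredoxins, had log2 fold changes of 0.13 (standard error 0.43) and -0.36 (0.42). Prdx5 overlapped between the groups, and both cKO values of Prdx2, 364 and 405 CPM, lay below its control values of 550 and 434 CPM. Of the superoxide dismutases and catalase, 2 of 4 were tested and 0 passed, with a median of -0.52. Sod2, the mitochondrial dismutase, stood at 0.32 (standard error 0.69) and Sod1, the cytosolic one, at -1.37 (0.94). Sod1 was counted 9 and 0 times in cKO epidermis and 9 and 23 times in control epidermis. Both its cKO values, 36.4 and 0 CPM, lay below its control values of 48.0 and 73.5 CPM. Of the genes that supply NADPH, 4 of 6 were tested and 0 passed, with a median of 0.09. Tkt, transketolase of the pentose phosphate pathway, stood at 0.46 (standard error 0.43) and Me1, the cytosolic malic enzyme, at -0.28 (0.48). Both cKO values of Tkt lay above both its control values. Groups were separated in either direction for 38.5% of all genes tested. Of other NRF2 targets, 4 of 17 were tested and 0 passed, with a median of 0.54, 3 of them above 0 and 1 below 0. The ferritin chains Ftl1 and Fth1, which store iron, stood at 0.59 (standard error 0.66) and 0.51 (0.49), and the values of both overlapped between the groups. The gene below 0 was Blvrb, at -1.41 (standard error 0.76), with 28.3 and 22.5 CPM in cKO and 74.7 and 67.1 CPM in control. Blvrb falls outside the rule for named genes and was chosen after its values were seen.

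The last list held 3 barrier genes known to respond to NRF2 in epidermis. Sprr2d and Slpi had at most 2 counts in any library. Elovl3, a fatty acid elongase also made in sebaceous glands, was counted 23 and 35 times in cKO epidermis and 9 and 13 times in control epidermis, or 93.0 and 393 CPM against 48.0 and 41.5 CPM. Its log2 fold change of 2.34 (standard error 0.68) had an unadjusted p of 0.00421 and an adjusted p of 0.195 in edgeR, so it did not pass. The value rested on cKO replicate 2, and was 1.07 without that library and 3.09 without cKO replicate 1, when it passed (adjusted p 0.000108). Sebaceous gland markers, 6 of 6 of them with a count, summed to 635 and 1236 CPM in cKO and 427 and 479 CPM in control, the highest also in cKO replicate 2. Their part in the Elovl3 values was not tested.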

How the data were processed

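The authors deposited 1 table of raw counts per gene for the 4 libraries, not normalised. All per-sample columns were used. The submitters' processing notes name Trim Galore 0.6.7, Trimmomatic 0.39, cutadapt 3.7, STAR 2.7.10a, featureCounts 2.0.1 and GRCm39. The use of strand, of molecular identifiers and of reads with several alignments is not given in the sources used here. Libraries were made with the QIAseq UPX 3' kit, per the labels' protocols.

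The filterByExpr filter left 4243 genes with 87.6% of all counts. Its minimum count of 10 acts as a CPM cutoff at the median library size, to be met in as many libraries as a group holds. A total of at least 15 counts was also required. Scaling was TMM and the test was edgeR 4.0.16 (R 4.3.3, estimateDisp, glmQLFit, glmQLFTest) of cKO against control, with Benjamini-Hochberg adjustment over all genes tested and a threshold of 0.05. Members under the filter were added to a separate run of the same fit. Standard errors came from the F statistic and the fold change. Alternatives were DESeq2 1.42.0, limma-voom (limma 3.58.1), other scalings and filters, the replicate block and each library left out. Copies were searched with blastn 2.17.0 in GENCODE M21 transcripts (at least 95% identity over 150 bases). The fit was also run on simulated counts with known changes, planted in genes that passed the filter. These changes were all larger than the main log2 fold change of any member, so that run does not bear on the members. The members and lists were chosen with earlier results of these data known. Named are all members and, from each wider list, genes with an adjusted or unadjusted p under 0.05 and the 2 with the highest mean CPM; exceptions are marked.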

Additional observations from a re-analysis of the deposited data

How the results depend on the processing

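No member passed the threshold in either direction under any of the 15 alternatives, which Nqo1, Gsta4 and Gstm1 could not do at their counts. The signs of Nfe2l2 (positive) and of Txnrd1 with all libraries present (negative) held in each alternative. Signs near 0 turned. With library totals only, Gclm was at -0.016, Hmox1 at -0.17 and Prdx1 at -0.24. With totals without the mitochondrial-copy pseudogenes, Hmox1 was at -0.039 and Prdx1 at -0.11. Without a count filter they were at -0.030 and -0.10. With limma-voom, Hmox1 was at -0.31, Prdx1 at -0.059 and Srxn1 at 0.37. Prdx1 was at -0.042 with upper-quartile factors, -0.052 when a mean of 10 CPM was required and -0.063 with DESeq2. Leaving out 1 library gave ranges of -0.58 to 0.45 for Prdx1, -2.57 to 0.98 for Txnrd1, -0.30 to 0.67 for Hmox1, -0.57 to 1.43 for Gclm, -0.079 to 1.04 for Gclc and -0.89 to 4.13 for Srxn1, the last against a control library at 0 counts, so that it is no bound.

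The log2 difference of the summed 10 genes was 0.037 with upper-quartile factors, -0.16 with library totals, -0.037 with totals without the mitochondrial-copy pseudogenes, and 0.0077 to 0.093 with a library left out. Over all genes, 28 higher and 8 lower calls became 49 and 26 without a count filter, 12 and 3 with limma-voom, and 34 to 59 and 8 to 34 with a library left out. When a mean of 10 CPM was required the lower calls were 15. In the wider lists the 1 call, Glrx, became 0 with limma-voom. A single gene was called without cKO replicate 1 as well, where Elovl3 passed and Glrx did not. The causes were not tested.

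Same-numbered libraries did not deviate together (correlation across genes -0.20). The deepest libraries, cKO replicate 1 and control replicate 2, carry different numbers, so this value cannot decide whether the numbers give a pairing. With the replicate number as a block, 16 genes were higher and 1 was lower, 0 wider-list genes were called, Srxn1 was at 0.58 and Prdx1 at -0.028. With the numbers crossed, a block chosen after seeing the data, 90 were higher and 57 lower, 2 wider-list genes and 0 members were called, and Prdx1 was at -0.027. The effect of the alternatives on the wider lists was also computed after seeing the data. Depth limits every member except Prdx1 and Txnrd1 to at most 16 counts in a library.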
